A study of Homo sapiens with 6 samples.

Results

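Transcripts of 10 heat shock proteins of the cytosol and mitochondria were followed in HCC38, an established human breast ductal adenocarcinoma line, after siRNA against CIP2A. The genes were taken by symbol and without a threshold: HSPA8, HSPA1A, HSPA1B, HSPH1, DNAJB1, HSP90AA1, HSP90AB1, HSPB1, HSPD1 and HSPE1. Each had its own row among the 26485 genes of the count table, and all 10 were among the 13562 genes with enough counts to be tested. The silenced group held 3 libraries, 1 for each of the siRNAs siCIP2A#1, siCIP2A#2 and siCIP2A#3. The control group also held 3, 1 for each of the non-targeting siRNAs SCR#2 and SCR#3 and 1 mock without siRNA. CIP2A encodes a protein that restrains the phosphatase PP2A. The siRNAs were carried by Oligofectamine. The sample label gives the mock this reagent alone, whereas the series description has it untransfected. The time between transfection and harvest is not given in the sources used here. All libraries come from 1 line, and no label tells whether they were separate cultures. The p-values therefore rest on the spread among 6 libraries, which may be technical.

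Heat shock proteins are molecular chaperones. HSP70 proteins hold unfolded stretches of other proteins in a cycle driven by ATP, J-domain proteins bring them clients and speed the hydrolysis, and HSP110 proteins exchange the nucleotide. HSP90 takes over many kinases and hormone receptors at a later stage of folding, small heat shock proteins hold unfolding proteins without ATP, and HSP60 with its lid HSP10 folds proteins inside mitochondria. Under heat or other damage to proteins, the factor HSF1 binds inverted repeats of the letters GAA upstream of many of these genes and raises their transcription. Tumour lines often carry high chaperone levels without any such stress.

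The letters that HSF1 is known to bind are shown for the members that have them, because binding there is the known route by which stress raises these transcripts. RefSeq windows of GRCh38.p14 were searched on both strands over the 250 bases before each start site for GAANNTTC and TTCNNGAA, which hold 2 units and can overlap, and for a 3-unit element, in which GAA follows GAANNTTC after 2 further bases. All 10 members had a window to search, with 16 windows in all. Capitals mark the letters of the element.
HSPA1A (chr6:31815426-31815455, plus strand): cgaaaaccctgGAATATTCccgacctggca
HSPA1B (chr6:31827622-31827651, plus strand): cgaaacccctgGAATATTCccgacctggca
HSPA8 (chr11:123062345-123062374, minus strand): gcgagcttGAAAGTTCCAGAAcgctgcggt
HSPA8 (chr11:123062170-123062199, minus strand): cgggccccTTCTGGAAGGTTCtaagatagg
HSP90AA1 (chr14:102087104-102087133, minus strand): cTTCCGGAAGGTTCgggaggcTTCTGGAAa
HSP90AB1 (chr6:44247770-44247799, plus strand): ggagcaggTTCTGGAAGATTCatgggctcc
HSP90AB1 (chr6:44247823-44247852, plus strand): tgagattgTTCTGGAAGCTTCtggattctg
DNAJB1 (chr19:14518456-14518485, minus strand): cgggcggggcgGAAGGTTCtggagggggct
DNAJB1 (chr19:14518426-14518455, minus strand): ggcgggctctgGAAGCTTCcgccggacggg
HSPB1 (chr7:76302480-76302509, plus strand): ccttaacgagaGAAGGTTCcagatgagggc
HSPD1 (chr2:197500061-197500090, minus strand): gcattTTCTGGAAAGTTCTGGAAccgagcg

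A 2-unit element stood in 8 of the 16 windows, which belong to 8 of the 10 members, and in 11.6% of all 35116 windows of the table. The 3-unit element stood in 4 windows, those of HSPA8, HSP90AA1, HSP90AB1 and HSPD1, and in 0.441% of all windows. HSPH1 and HSPE1 had neither within their windows. HSPA1A and HSPA1B each had a TATAAA, with its first base at -30 and -29 from the start site, a motif found in 10.7% of all windows, and their 250 upstream bases were 93.6% identical. HSPD1 and HSPE1 are read away from each other on chromosome 2, with 104 bases between the start sites at 197500274 and 197500379. The element shown for HSPD1 is not in that stretch. It lies before another HSPD1 start site, at 197499840, within the span of the gene. The elements shown for HSPA8, HSP90AA1, HSP90AB1 and DNAJB1 likewise lie within the span of their gene. These matches describe letters only.

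Total counts lay between 13995187 and 18161451, and the smallest count of a member in any library was 441, far above the floor of 3 counts, which equals 0.165 to 0.214 CPM (counts scaled to the total of the library) and covers counting error only. CIP2A, the siRNA target, had 16.3, 45.8 and 19.3 CPM in the libraries of siCIP2A#1, siCIP2A#2 and siCIP2A#3, against 98.9 to 103 CPM in the controls. The label triple negative was checked against ESR1, at most 0.351 CPM, PGR, at most 0.117 CPM, and ERBB2, 48.3 to 74.1 CPM. Of the basal markers, EGFR (74.2 to 83.4 CPM) and VIM (4300 to 4800 CPM) were present, whereas the keratins KRT5, KRT14 and KRT17 had at most 1 count in any library. For other cell types, 6 markers summed to 55 to 126 counts with the CIP2A siRNAs and 48 to 97 counts in the controls. Most of these counts were from the endothelial marker PECAM1, at 44 to 115 counts (3.01 to 6.33 CPM) over the libraries. PTPRC and the other endothelial marker, CDH5, were at 0 in every library, and CD3E, LUM and DCN had at most 11 counts.

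The first comparison asked whether the 10 transcripts differed between the 3 silenced libraries as 1 group and the controls. None passed the test (0 of 10, edgeR quasi-likelihood test with Benjamini-Hochberg adjustment over all tested genes, adjusted p = 0.999 for each). Over all genes 0% were called, and 369 genes (2.72%) had an unadjusted p under 0.05, of which 0 were members. DESeq2 called 2 genes higher and 1 lower, and no member. The log2 differences of the members lay between -0.15 and 0.28 with a median of -0.011, beside -0.0011 for all tested genes, and 5 were above and 5 below 0. CPM here are scaled with TMM factors, and log2 differences are CIP2A siRNAs minus controls. In bulk RNA, a lower value cannot tell fewer expressing cells from less RNA per cell. The targeted gene itself differed by -1.90 (SE 0.30) and was not called in this grouping either (edgeR adjusted p = 0.708).

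**Figure D1:**
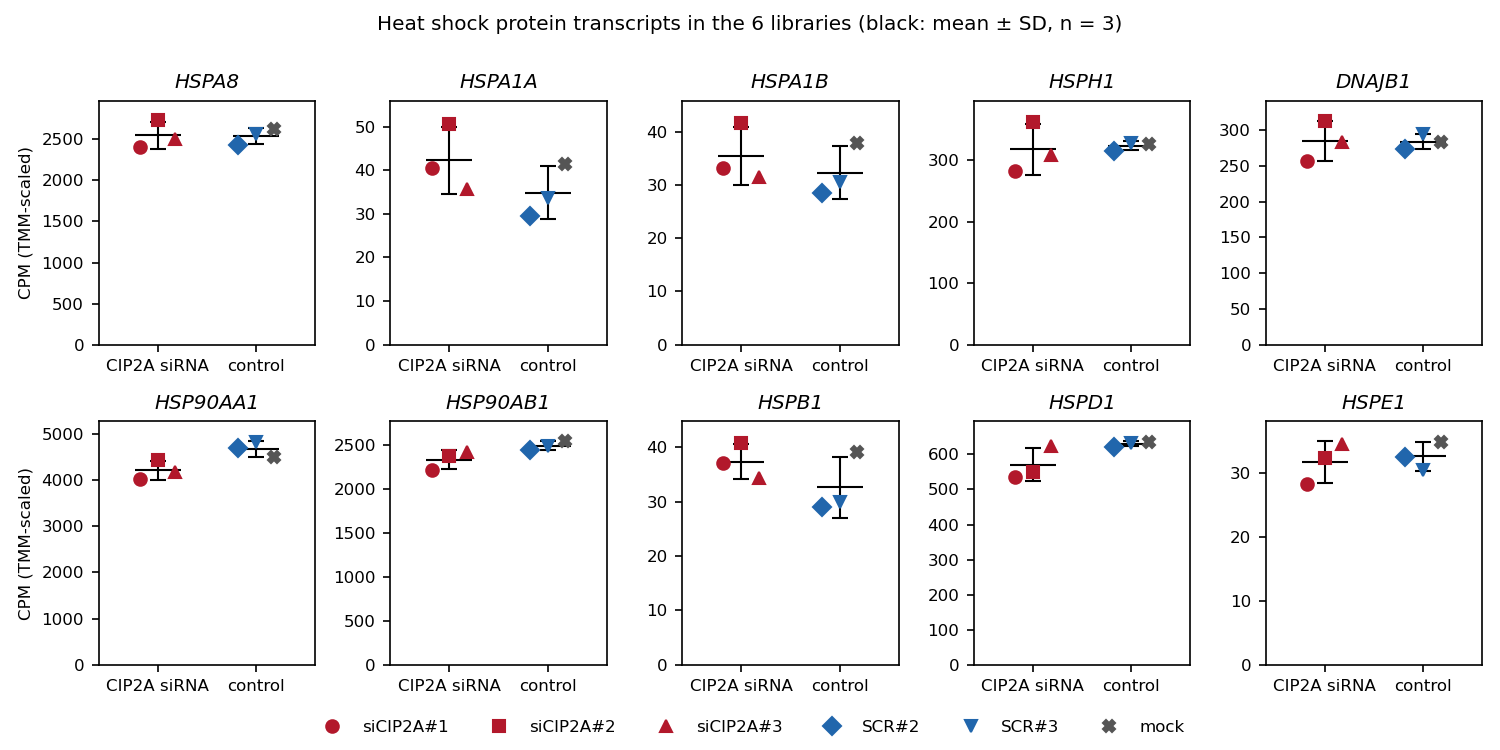
CPM of each member (vertical axis from 0) in the 3 CIP2A siRNA libraries (red) and the 3 controls (blue for non-targeting siRNAs, grey for the mock), with the mean ± SD of each group of 3 in black. The groups overlap for 8 members, and for HSP90AA1 and HSP90AB1 every red point lies below every control.

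HSPA8, the constitutive HSP70 of the cytosol (chr11:123057489-123062462 in GRCh38.p14, minus strand), had 2412, 2729 and 2506 CPM with siCIP2A#1, siCIP2A#2 and siCIP2A#3, against 2436, 2565 and 2625 CPM with SCR#2, SCR#3 and the mock. The 2 sets of libraries overlapped throughout, and the highest and the lowest library were both silenced ones. The log2 difference was 0.0041 (SE 0.078, 95% interval -0.17 to 0.17).

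HSPA1A and HSPA1B encode the stress-inducible HSP70 and lie next to each other on chromosome 6 (31815543-31817942 and 31827738-31830254, both on the plus strand). HSPA1A had 40.5, 50.6 and 35.7 CPM with siCIP2A#1, siCIP2A#2 and siCIP2A#3, against 29.5, 33.7 and 41.3 CPM with SCR#2, SCR#3 and the mock. All silenced libraries lay above both non-targeting siRNAs, but the mock lay above siCIP2A#1 and siCIP2A#3. The log2 difference was 0.28 (SE 0.15, 95% interval -0.054 to 0.61, unadjusted p = 0.093 in edgeR). HSPA1B had 33.2, 41.7 and 31.4 CPM with the CIP2A siRNAs in the same order, against 28.5, 30.5 and 37.9 CPM in the controls in the same order. It had the same order among the silenced libraries and among the controls, with a log2 difference of 0.13 (SE 0.14, 95% interval -0.18 to 0.44). Its silenced libraries also lay above both non-targeting siRNAs. The share of all tested genes in this position was not computed. Without siCIP2A#2 the difference was 0.13 for HSPA1A and 0.00099 for HSPA1B, and without the mock it was 0.42 and 0.26.

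The 2 genes cannot be separated well by reads: 72.6% of the 50-base windows of the longest coding HSPA1A transcript and 73.5% of those of HSPA1B also occur in another gene, and how such reads were counted is not given in the sources used here. Their sum was 73.7, 92.3 and 67.1 CPM with the CIP2A siRNAs, against 58.1, 64.3 and 79.3 CPM in the controls, a log2 difference of 0.21 (SE 0.14, 95% interval -0.097 to 0.52). The mock is again inside the range of the silenced libraries. The ratio of HSPA1A to HSPA1B was 1.22, 1.22 and 1.14 with the CIP2A siRNAs and 1.03, 1.10 and 1.09 in the controls, so the groups did not overlap (exact two-sided permutation test, p = 0.10, the smallest that 3 against 3 can give). How many other gene pairs separate in this way was not computed, and the part of shared reads in this ratio was not tested. In addition, 36.5% of the exon bases of HSPA1B are shared on the same strand with another GENCODE gene, AL671762.1.

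HSPH1, an HSP110 protein that acts as an exchange factor for HSP70 (chr13:31134973-31162388, minus strand), had 281, 362 and 308 CPM with siCIP2A#1, siCIP2A#2 and siCIP2A#3, against 314, 328 and 327 CPM with SCR#2, SCR#3 and the mock. The controls sat close together between the extremes set by siCIP2A#1 and siCIP2A#2. The SD was 41.2 CPM with the CIP2A siRNAs and 7.61 CPM in the controls (n = 3 each), and the log2 difference was -0.027 (SE 0.098, 95% interval -0.24 to 0.19). DNAJB1, the J-domain protein HSP40 (chr19:14514769-14560391, minus strand), had 257, 313 and 284 CPM with the CIP2A siRNAs, against 273, 294 and 283 CPM in the controls. It followed the same order, with siCIP2A#1 lowest and siCIP2A#2 highest of all 6 libraries. Its SD was 28.0 CPM with the CIP2A siRNAs and 10.4 CPM in the controls, and its log2 difference was 0.0045 (SE 0.091, 95% interval -0.19 to 0.20).

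HSP90AA1 and HSP90AB1 encode the inducible and the constitutive form of cytosolic HSP90, and were the only members whose silenced libraries all lay below all controls. HSP90AA1 (chr14:102080742-102139749, minus strand) had 4028, 4432 and 4179 CPM with siCIP2A#1, siCIP2A#2 and siCIP2A#3, against 4691, 4827 and 4497 CPM with SCR#2, SCR#3 and the mock. The gap was narrow, from 4432 CPM in the highest silenced library to 4497 CPM in the mock. The log2 difference was -0.15 (SE 0.075, 95% interval -0.31 to 0.014, unadjusted p = 0.0692 in edgeR), which is 0.902-fold. HSP90AB1 (chr6:44246194-44253883, plus strand) had 2215, 2375 and 2424 CPM with the CIP2A siRNAs, against 2445, 2494 and 2554 CPM in the controls. Here siCIP2A#3 and SCR#2 were almost level, and the log2 difference was -0.095 (SE 0.074, 95% interval -0.26 to 0.066).

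For each of these separations an exact permutation test (two-sided, 6 libraries) gave p = 0.10, the smallest value possible. Such a position below all controls was found for 2 of 10 members and for 4.38% of all tested genes, and a position above all controls for 0 of 10 members and 3.26% of all tested genes. The ratio of HSP90AA1 to HSP90AB1 was 1.82, 1.87 and 1.72 with the CIP2A siRNAs, against 1.92, 1.93 and 1.76 in the controls, with overlapping groups (exact permutation p = 0.50). Of their 50-base windows, 17.5% and 18.8% also occur in other genes, mostly the pseudogenes HSP90AA2P and HSP90AB3P.

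HSPB1 encodes HSP27, a small heat shock protein (chr7:76302673-76304292, plus strand). It had 37.0, 40.8 and 34.3 CPM with siCIP2A#1, siCIP2A#2 and siCIP2A#3, against 28.9, 29.9 and 39.0 CPM with SCR#2, SCR#3 and the mock. As for HSPA1A and HSPA1B, every silenced library exceeded both non-targeting siRNAs, and the mock lay among the silenced libraries. Without the share of all tested genes, this position cannot be read as a trait of these members. The log2 difference was 0.20 (SE 0.13, 95% interval -0.093 to 0.49).

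In the mitochondrial chaperonin, HSPD1 encodes the HSP60 barrel and HSPE1 its HSP10 lid. HSPD1 (chr2:197486584-197500274, minus strand) had 537, 550 and 625 CPM with siCIP2A#1, siCIP2A#2 and siCIP2A#3, against 622, 633 and 635 CPM with SCR#2, SCR#3 and the mock. siCIP2A#1 and siCIP2A#2 lay below all controls and siCIP2A#3 lay among them. The log2 difference was -0.14 (SE 0.083, 95% interval -0.32 to 0.037, unadjusted p = 0.11 in edgeR). HSPE1 (chr2:197500379-197503449, plus strand) had 28.3, 32.4 and 34.6 CPM with the CIP2A siRNAs, against 32.4, 30.5 and 34.9 CPM in the controls, with overlapping groups and a log2 difference of -0.039 (SE 0.12, 95% interval -0.29 to 0.21). The ratio of HSPD1 to HSPE1 per kb of exon was 7.61, 6.81 and 7.24 with the CIP2A siRNAs and 7.68, 8.33 and 7.30 in the controls (exact two-sided permutation p = 0.20).

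The level of HSPE1 is uncertain for reasons that lie in its locus. On the same strand, 18.6% of its exon bases are shared with the read-through gene HSPE1-MOB4, and 27.3% are shared with HSPD1 on the opposite strand. In these libraries HSPE1-MOB4 had 0 counts everywhere and MOB4, which lies inside the same read-through gene, had at most 1. Pseudogenes named after HSPE1 number 26 in GENCODE 29, and 27.2% of the 50-base windows of HSPE1 and 24.8% of those of HSPD1 also occur in other genes. The part of these features in the counts was not tested.

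**Figure D2:**
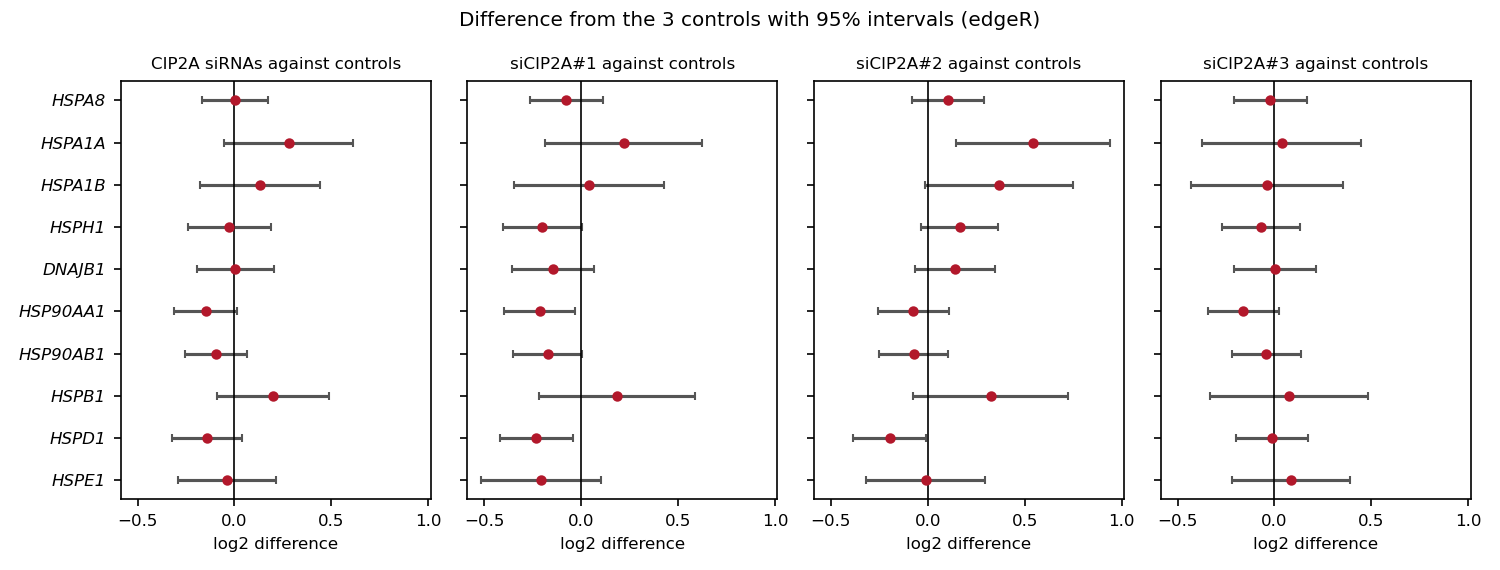
Log2 difference (horizontal axis) of each member from the controls with its 95% interval from edgeR, for the 3 CIP2A siRNAs together and for each siRNA. In the left panel every interval includes 0, and in the siCIP2A#2 panel HSPA1A reaches 0.54 with an interval from 0.14 to 0.94.

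The second question was whether the 3 siRNAs acted alike on these transcripts. Each siRNA was fitted as its own level, so its lone library is assumed to vary as the 3 controls do, which leaves 2 residual degrees of freedom. CIP2A itself was called with each siRNA, at -2.62, -1.13 and -2.38 (edgeR adjusted p = 0.000241, 0.0165 and 0.000468 with siCIP2A#1, siCIP2A#2 and siCIP2A#3). No member was called with any siRNA, where over all genes edgeR called 0.118% with siCIP2A#1, 0.0737% with siCIP2A#2 and 0.00737% with siCIP2A#3. The members with an unadjusted p under 0.05 numbered 2 of 10 with siCIP2A#1, 2 of 10 with siCIP2A#2 and 0 of 10 with siCIP2A#3, and the shares over all genes were 9.95%, 11.6% and 8.22%. These comparisons share their control libraries, so their values are given side by side and not as repeats of each other.

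With siCIP2A#1, 7 of 10 members lay below 0 (median -0.16, all tested genes -0.0063). HSPD1 differed by -0.23 (SE 0.083, edgeR adjusted p = 0.382) and HSP90AA1 by -0.21 (SE 0.081, edgeR adjusted p = 0.416), and HSPH1 stood at -0.20. HSPA1A and HSPB1, at 0.22 and 0.19, pointed the other way. With siCIP2A#2, 6 of 10 members lay above 0 (median 0.12, all tested genes -0.0030). HSPA1A differed by 0.54 (SE 0.17, 95% interval 0.14 to 0.94, edgeR adjusted p = 0.342), or 1.46-fold, and HSPA1B by 0.37, HSPB1 by 0.32, HSPH1 by 0.16 and DNAJB1 by 0.14. HSPD1 was on the other side at -0.20 (SE 0.083, edgeR adjusted p = 0.414). With siCIP2A#3 all members lay within -0.16 (HSP90AA1, SE 0.081, edgeR adjusted p = 0.645) and 0.086 (HSPE1), with a median of -0.016, beside -0.0091 for all tested genes.

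Between siRNAs, the median of the members was farthest from 0 for siCIP2A#1 against siCIP2A#2. All 10 members were lower with siCIP2A#1 than with siCIP2A#2 (median -0.19), as were 50.8% of all tested genes (median -0.0053), but none passed the test. HSPH1 differed by -0.36 (SE 0.11, 95% interval -0.61 to -0.12, edgeR adjusted p = 0.26) and DNAJB1 by -0.28 (SE 0.11, 95% interval -0.54 to -0.029, edgeR adjusted p = 0.367). HSPA1A and HSPA1B stood at -0.32 and -0.33, with intervals that include 0. Among the 3 silenced libraries, siCIP2A#2 was the highest for 7 of 10 members and for 35.2% of all tested genes, and siCIP2A#1 the lowest for 7 of 10 members and for 31.2% of all tested genes. CIP2A itself was also highest with siCIP2A#2 and lowest with siCIP2A#1, and siCIP2A#1 was the deepest library. The part of either in these orders was not tested.

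For siCIP2A#1 against siCIP2A#3, 7 of 10 members were below 0 (median -0.093), as were 49.6% of all tested genes (median 0.0019). HSPE1 led at -0.29 (SE 0.16), with HSPD1 at -0.22 (SE 0.10, edgeR adjusted p = 0.385). For siCIP2A#2 against siCIP2A#3, 7 of 10 were above 0 (median 0.13), as were 51.6% of all tested genes (median 0.012). HSPA1A led at 0.50 (SE 0.22, 95% interval 0.0056 to 1.00, edgeR adjusted p = 0.317), with HSPA1B at 0.41 (SE 0.21). No member was called in these pairs, where edgeR called 0.509% and 0% of all genes, nor between siCIP2A#1 and siCIP2A#2, where it called 0.0147%. At an unadjusted p under 0.05, 2 of 10 members stood out between siCIP2A#1 and siCIP2A#2 (12.1% of all genes), 0 between siCIP2A#1 and siCIP2A#3 (13.6%) and 1 between siCIP2A#2 and siCIP2A#3 (15.6%). A p above the threshold does not show that the siRNAs act alike, and between siCIP2A#2 and siCIP2A#3 the interval of HSPA1B reaches 0.88.

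**Figure D3:**
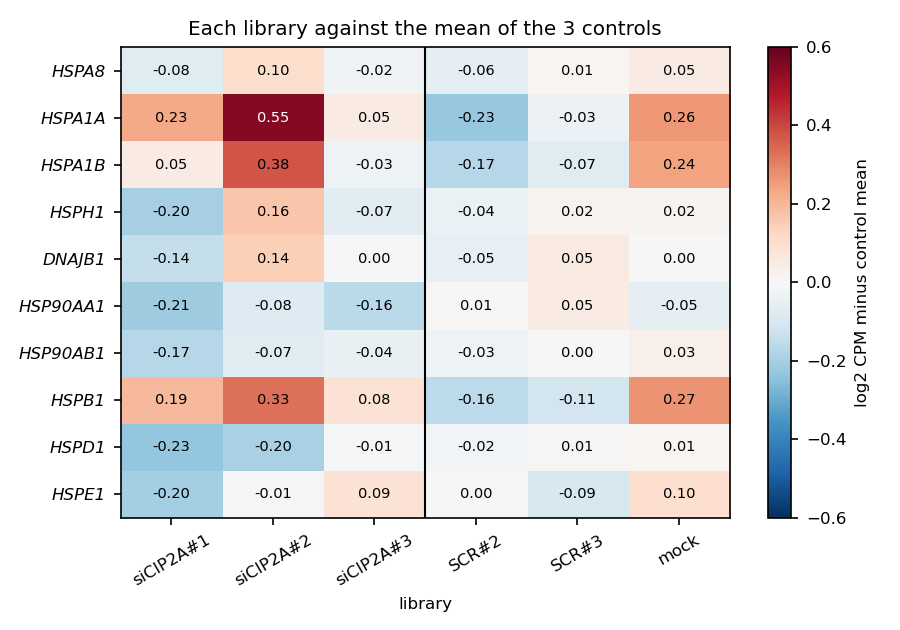
Log2 CPM of each member in each library minus the mean of the 3 controls (colour and printed value), with the CIP2A siRNA libraries left of the line. HSPA1A, HSPA1B and HSPB1 are high with siCIP2A#2 (0.55, 0.38 and 0.33) and in the mock (0.26, 0.24 and 0.27), and the column of siCIP2A#1 is negative except for the same 3 genes.

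HSPA1A, HSPA1B and HSPB1 also spread most among the controls. Non-targeting siRNAs against the mock, in a fit with 3 residual degrees of freedom, gave -0.41 for HSPB1 (SE 0.16, 95% interval -0.76 to -0.057, edgeR adjusted p = 0.759), -0.39 for HSPA1A (SE 0.21) and -0.36 for HSPA1B (SE 0.19). The other 7 members lay between -0.15 (HSPE1) and 0.081 (HSP90AA1). edgeR called no member and 0% of all genes, and 1 of 10 had an unadjusted p under 0.05, beside 6.31% of all genes. The mock lay above both non-targeting siRNAs for 7 members (all tested genes 40.5%) and below both for HSP90AA1 (all tested genes 40.0%).

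Leaving out the mock changed what was called with single siRNAs. Without it, the spread rests on SCR#2 and SCR#3, 1 residual degree of freedom, and the counts of these libraries differed by a chi-square per degree of freedom of 3.20, against 8.94 and 11.3 for each of them with the mock. In that setting edgeR called 22.4% of all genes with siCIP2A#2, among them 5 of 10 members. HSPA1A was called higher by 0.68 (SE 0.098, edgeR adjusted p = 3.27e-06), HSPA1B by 0.50 (edgeR adjusted p = 0.000345), HSPB1 by 0.47 (edgeR adjusted p = 0.000619) and HSPH1 by 0.17 (edgeR adjusted p = 0.0407), and HSPD1 was called lower at -0.19 (edgeR adjusted p = 0.0172). With siCIP2A#1 it called 13.8% of all genes and 6 members, HSPA1A (0.36) and HSPB1 (0.33) higher and HSP90AA1 (-0.24), HSPD1 (-0.23), HSPH1 (-0.19) and HSP90AB1 (-0.16) lower. With siCIP2A#3 it called 9.65% of all genes and 1 member, HSP90AA1, lower at -0.19 (SE 0.054, edgeR adjusted p = 0.022).

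Between siRNAs, and without the mock, 16.7% of all genes were called for siCIP2A#1 against siCIP2A#2, with HSPH1, DNAJB1, HSPA1A, HSPA1B and HSPA8 lower with siCIP2A#1. For siCIP2A#2 against siCIP2A#3, 22% of all genes were called, with HSPA1A, HSPA1B and HSPH1 higher and HSPD1 lower with siCIP2A#2, and for siCIP2A#1 against siCIP2A#3, 18%, with HSPD1 lower with siCIP2A#1. In the comparison of the whole groups without the mock, no member was called, HSPA1A stood at 0.42 (SE 0.16) and HSPB1 at 0.34 (SE 0.12), each with edgeR adjusted p = 0.875.

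Levels can be compared between genes per length only, here as mean CPM per kb of merged GENCODE 29 exons over the 6 libraries, among 12104 genes with a length. HSP90AA1 was the most abundant member at 1103 ± 74.8 CPM per kb (SD, n = 6) (rank 13), and HSPA8 followed at 943 ± 44.4 (rank 17), with ranges that overlap. HSP90AB1 had 811 ± 39.1 CPM per kb (rank 20) and HSPD1 234 ± 17.4 (rank 143). DNAJB1 had 116 ± 7.72 CPM per kb, HSPH1 56.5 ± 4.71, HSPB1 33.0 ± 4.55 and HSPE1 31.2 ± 2.43, the last 2 with overlapping ranges. The rows of the inducible HSP70 genes had 15.5 ± 2.96 for HSPA1A (rank 4159) and 13.4 ± 1.97 CPM per kb for HSPA1B (rank 4639), again with overlapping ranges. Their place in this order is uncertain, since 72.6% and 73.5% of their windows are shared and the counting of shared reads is not given in the sources used here. The same doubt holds in a smaller part of the windows for HSPE1 (27.2%), HSPD1 (24.8%), HSP90AB1 (18.8%), HSP90AA1 (17.5%), HSPA8 (15.4%), HSPB1 (11.4%) and DNAJB1 (2.57%). HSPH1 shared none of its windows. All 10 members made up 1.00 to 1.09% of all counts in the silenced libraries and 1.09 to 1.13% in the controls. The ranges meet, with siCIP2A#2, SCR#2 and the mock each at 1.09%. Most of these counts were from HSP90AA1, HSPA8 and HSP90AB1, at 74424, 44564 and 40931 of 182342 with siCIP2A#1. The share therefore says little about the other members.

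**Figure D4:**
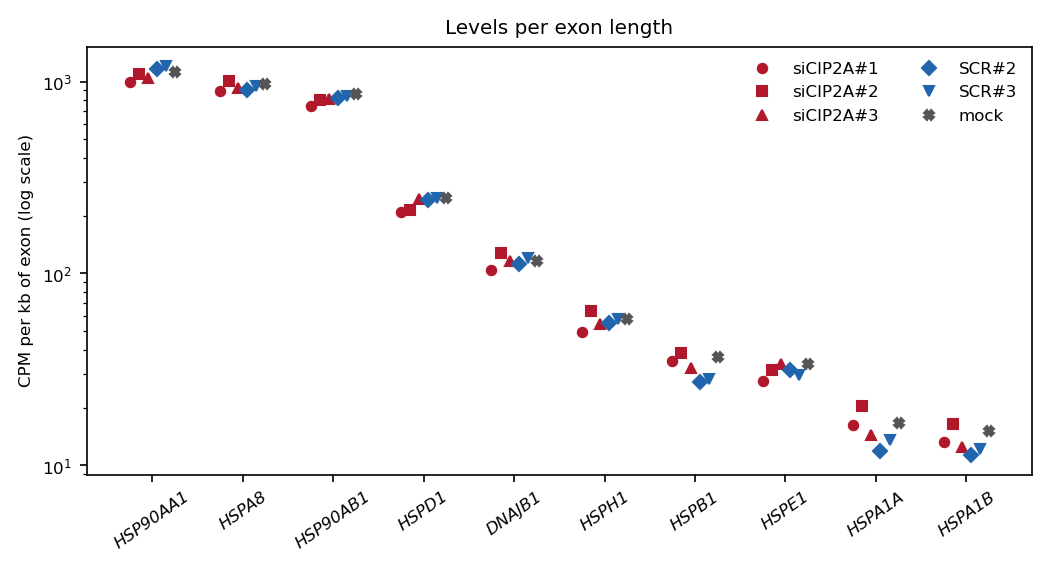
Level of each member in CPM per kb of exon (log axis) in each library, with the silenced libraries left of the controls within each gene. The order runs from HSP90AA1 (1103) to HSPA1B (13.4), and the ranges of HSP90AA1 and HSPA8, of HSPB1 and HSPE1, and of HSPA1A and HSPA1B overlap.

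How much the members varied among the 6 libraries also differed. The SD of log2 CPM was 0.27 for HSPA1A, larger than that of 96.8% of the 6597 genes that average 5 or more in log2 CPM, 0.21 for HSPA1B (88.1%) and 0.20 for HSPB1 (87.5%). HSPA8 (0.067, 11.1%) and HSP90AB1 (0.071, 12.9%) were among the steadiest, and the other 5 members lay between 0.096 and 0.12. In likeness of pattern, measured over the 6 libraries as the root mean square distance of centred log2 CPM, the genes nearest to DNAJB1 were HDLBP (0.0153), HNRNPLL (0.0236) and CSNK2A1 (0.025). Of the members, HSPH1 was nearest to DNAJB1 (0.0375, rank 19 of 6597) and HSPA8 next (0.0425, rank 34). Nearest to HSPD1 were TERF2IP (0.0111), RPS3 (0.015) and RPS4X (0.0171), and its partner in the chaperonin, HSPE1, had rank 1010 (0.0891). These distances describe 6 libraries and carry no test.

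The rest of the chaperone system gave 87 further genes in 10 lists, of which 79 were tested. None passed the test for the CIP2A siRNAs against the controls and 0 had an unadjusted p under 0.05, with 29 above and 50 below 0, where 50.3% of all tested genes were below 0. Of the heat shock factors, HSF1, the master regulator, had 118, 139 and 125 CPM with the CIP2A siRNAs, against 102, 97.9 and 145 CPM with SCR#2, SCR#3 and the mock, and differed by 0.15 (SE 0.14). The mock was again the highest control, and here the highest of all 6 libraries. HSF4, at 4.42 to 6.46 CPM with the CIP2A siRNAs and 4.07 to 5.24 CPM in the controls, differed by 0.15 (SE 0.20).

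The 8 subunits of the cytosolic chaperonin, which folds actin and tubulin, all lay below 0 in a narrow range from -0.12 to -0.047 (median -0.064), with TCP1 at -0.12 (SE 0.080) and CCT7 at -0.097 (SE 0.078). Of the single siRNAs, only siCIP2A#2 had all 8 subunits below 0, where siCIP2A#1 had 6 of 8 and siCIP2A#3 had 4. Of all tested genes, 51.2% were below 0 with siCIP2A#1, 50.6% with siCIP2A#2 and 52% with siCIP2A#3. For the 3 siRNAs as 1 group, HSP90 partners had 9 of 12 below 0 (median -0.050). PTGES3, the p23 co-chaperone, stood at -0.17 (SE 0.081) and AHSA1, which stimulates the HSP90 ATPase, at -0.11 (SE 0.087). HSP70 exchange and partner factors had 6 of 8 below 0, with BAG1 at -0.16 and ST13 at -0.11. Other J-domain proteins had 5 of 8 below 0, with DNAJA2 at -0.24 (SE 0.13, and -0.097 without siCIP2A#1) and DNAJB4 at -0.17, and other HSP70 and HSP110 genes 5 of 8, with the testis-rich HSPA1L at -0.19 and HSPA4 at -0.055.

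HSF1-inducible genes outside the members had 11 of 14 below 0 (median -0.052), but the collagen chaperone SERPINH1 was at 0.23 (SE 0.11, and 0.11 without siCIP2A#2). Of these 14, 12 were below 0 with siCIP2A#1, 7 with siCIP2A#2 and 8 with siCIP2A#3. Some of them, such as AHSA1 and HSPB8, also stand in another list, so the list counts partly repeat each other. Mitochondrial chaperones and proteases had 5 of 10 above and 5 below, with CLPX, the unfoldase of a matrix protease, at -0.15 and GRPEL1, the exchange factor of mitochondrial HSP70, at -0.088. The list of small heat shock proteins, made of genes with HSPB and CRYA symbols, had 3 of 9 tested. HSPB8 stood at -0.28 (SE 0.32) and HSPB11 at 0.031. A symbol alone does not show that a gene encodes such a protein, HSPB11 included. ER chaperones had 8 of 14 above 0 (median 0.012): HSPA5 (BiP) differed by 0.018, HYOU1 by 0.13 and DNAJB11 by 0.051, and HSP90B1, the ER form of HSP90, by -0.16 (SE 0.086). HSPA6, DNAJA4, CRYAB, CRYAA, HSPB2, HSPB3, HSPB7 and HSPB9 had too few counts to be tested. HSPA6 is a strictly heat-inducible HSP70.

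**Figure D5:**
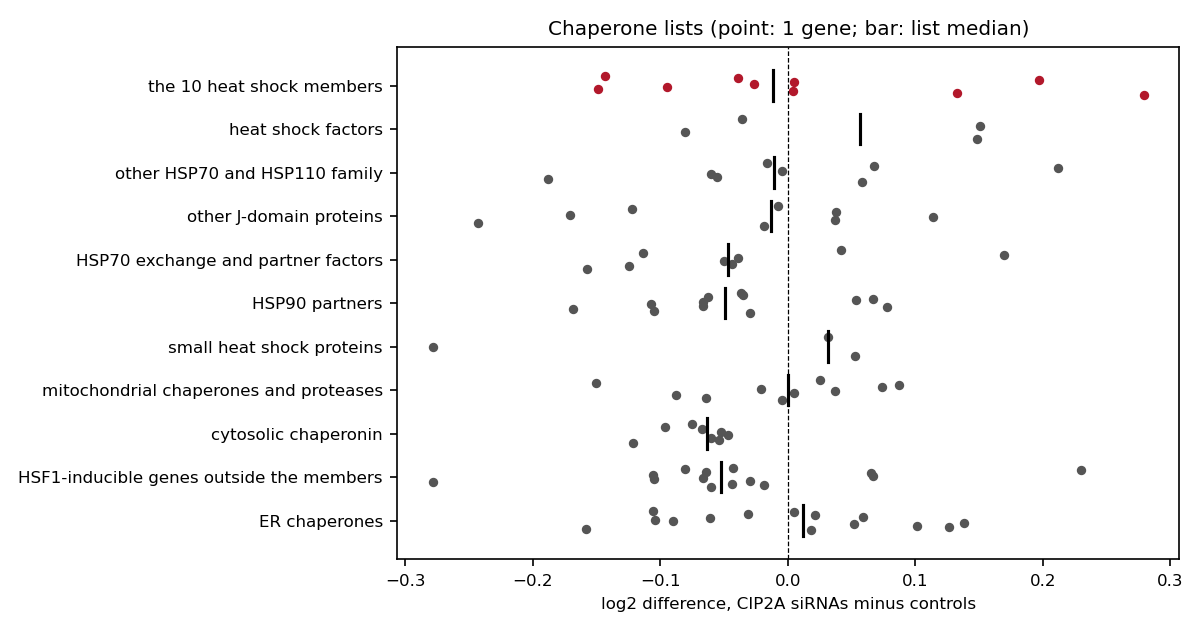
Log2 difference of single genes (points) between the CIP2A siRNAs and the controls for the 10 members (red) and the other chaperone lists (grey), with the median of each list as a bar. Points lie between -0.28 and 0.28, and the chaperonin subunits form the tightest group, from -0.12 to -0.047.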

How the data were processed

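Poly(A) RNA of 6 HCC38 libraries was sequenced after a TruSeq Stranded mRNA preparation, per the labels' protocols. Raw read counts for each gene, as whole numbers in a column for each library, were deposited by the authors, per the file headers. bcl2fastq 2.17, STAR 2.5.4b, Subread 1.5.1 and hg38 are named in the submitters' processing notes. Not given in the sources used here are the annotation, the strand setting and the treatment of reads shared by several genes, so near-identical copies and overlapping genes are uncertain. KIAA1524 is printed as CIP2A.

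Genes passing filterByExpr (minimum count 10) were scaled by TMM and tested with edgeR 4.0.16 in R 4.3.3 (robust glmQLFit, glmQLFTest, Benjamini-Hochberg adjusted p under 0.05 over 13562 genes). The group fit had 4 residual degrees of freedom. Standard errors are the log2 difference over the root of F, and intervals are at 95%. Log2 CPM used a prior count of 2. The edgeR fits of the whole groups, siCIP2A#1 against controls, non-targeting siRNAs against mock and siCIP2A#1 against siCIP2A#2 were tested on simulated counts. In those counts the whole-group fit called 50% of the genes changed 1.5-fold and 86% of those changed 2-fold. It also made 13 false calls. The other simulated fits called smaller shares at both folds. In the real libraries the whole-group fit called 0% of all genes, and CIP2A, at 0.268-fold, was not called (edgeR adjusted p = 0.708). Whether the shares above hold for the real libraries was not tested. Real changes of 1.5-fold or 2-fold can therefore go uncalled. No library was a copy of another.

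The 10 members and all lists were chosen with earlier results of these data known. Besides all members and CIP2A, the rule named the 2 genes of each list with the smallest p, 4 ER counterparts, and the 3 genes most like DNAJB1 and HSPD1. Alternatives were other scalings, filters and tools (DESeq2 1.42.0, limma 3.58.1), a replicate block, the mock as its own level, HSPA1A and HSPA1B summed, and each library left out.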

Additional observations from a re-analysis of the deposited data

How the results depend on the processing

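No member was called in any comparison under another scaling, filter or tool, with the summed HSPA1 rows, with the mock as its own level or with a replicate block, the last 3 run for the groups as a whole. Calls appeared only when the mock was left out, and with 1 library left out the number of members called ranged from 0 to 6 for siCIP2A#1, 0 to 5 for siCIP2A#2 and 0 to 1 for siCIP2A#3 against controls, 0 to 5 for siCIP2A#1 against siCIP2A#2, 0 to 1 for siCIP2A#1 against siCIP2A#3 and 0 to 4 for siCIP2A#2 against siCIP2A#3. The cause was not tested beyond the smaller spread given for SCR#2 and SCR#3. Some signs turned. For the CIP2A siRNAs against controls, limma-voom put DNAJB1 at -0.0003975, and with the mock as its own level HSPE1 stood at 0.0112, HSPA5 at -0.0008584 and HSPA1L at 0.01946. With upper quartile factors HSPD1 stood at 0.006348 for the non-targeting siRNAs against the mock. With 1 library left out, the CIP2A siRNAs against controls gave from -0.11 to 0.039 for HSPE1, -0.051 to 0.11 for HSPA5, -0.42 to 0.019 for HSPA1L, -0.049 to 0.043 for HSPA8, -0.070 to 0.074 for DNAJB1, -0.027 to 0.11 for HSPB11, -0.13 to 0.053 for HSPH1, -0.0077 to 0.27 for HSF4 and -0.0061 to 0.13 for DNAJB11. The range was -0.043 to 0.17 for HSPA1B with siCIP2A#1 and -0.056 to 0.039 for HSPE1 with siCIP2A#2. With siCIP2A#3 it was -0.12 to 0.091 for HSPA1B, -0.051 to 0.0039 for HSPA8, -0.072 to 0.18 for HSPA1A, -0.023 to 0.031 for DNAJB1 and -0.0071 to 0.22 for HSPB1. For the non-targeting siRNAs against the mock it was -0.054 to 0.0063 for HSPH1 and -0.047 to 0.056 for DNAJB1. HSP90AA1 kept its sign throughout the main comparison (-0.19 to -0.12), as did HSPD1 (-0.21 to -0.10) and HSPA1A (0.13 to 0.42). HSPA1B lay between 0.00099 and 0.26, HSPB1 between 0.12 and 0.34, and HSF1 between 0.045 without SCR#3 and 0.35 without the mock.

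Deviations from the group mean of libraries with the same replicate number correlated at r = -0.12, -0.13 and 0.0076. These values cannot decide whether the numbers pair the libraries, because the libraries of each group also differ in reagent. The replicate block left all members uncalled and moved CIP2A to -2.03 (edgeR adjusted p = 0.0345), and without siCIP2A#2 CIP2A stood at -2.499 (edgeR adjusted p = 1.2e-05). Counts over all genes depended on the setting: for siCIP2A#1 against controls edgeR called 8 genes higher and 8 lower, DESeq2 22 and 53, and edgeR with no filter 89 and 80.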
